A study of Homo sapiens with 6 samples.

Results

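The proteasome is the large protease that degrades ubiquitin-tagged proteins in the cytosol and nucleus. Its genes were taken as all protein-coding genes of the deposited table whose GENCODE release 29 symbol runs from PSMA to PSMG followed by a number, which gave 48 of 58395 genes. They encode the core particle, the regulatory particle, the activators and the assembly chaperones. The sequenced RNA came from M14, as labelled, a long-established melanoma line of human origin, which had been cultured without attachment as melanospheres, broken up mechanically and stained for CD20. The CD20-positive group held 3 libraries of sorted stained cells, and the CD20-negative group held 3 libraries of the cells sorted as unstained. No drug, allele or time point separates the groups, and both share the line, the sphere culture and the sort. Replicate numbers 1 to 3 are given within each group, with no statement that separate cultures stand behind them, so any p-value covers only the spread among these libraries, which may be technical.

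The core particle is a barrel of stacked rings. Its outer rings are made of alpha subunits (PSMA genes), which form the gate, and its inner rings of beta subunits (PSMB genes), of which PSMB5, PSMB6 and PSMB7 carry the chymotrypsin-like, caspase-like and trypsin-like active sites. The regulatory particle caps the barrel: a base of ATPases (PSMC genes) unfolds the substrate and a lid (PSMD genes) removes ubiquitin. Interferon-gamma replaces the catalytic subunits with PSMB8, PSMB9 and PSMB10. When proteasome activity is blocked, the transcription factor encoded by NFE2L1 raises the subunit genes together through antioxidant response elements in their promoters, and the CCAAT-binding factor NF-Y is known to act on many of them.

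The 250 bases before the RefSeq start (GRCh38.p14) of 4 of these genes are shown 5′ to 3′ on the gene's strand. The first 3 passed the threshold for a lower level in the paired fit described below, and the fourth did not. Capitals mark the CCAAT box, which reads ATTGG where it lies on the other strand. PSMA5 encodes an alpha-ring subunit, PSMB5 the chymotrypsin-like subunit, PSMD8 a lid subunit, and PSMC3 the base ATPase with the highest level. The windows are chr1:109426449-109426698 on the minus strand for PSMA5, chr14:23035221-23035470 on the minus strand for PSMB5, chr19:38374321-38374570 on the plus strand for PSMD8 and chr11:47426440-47426689 on the minus strand for PSMC3.
PSMA5: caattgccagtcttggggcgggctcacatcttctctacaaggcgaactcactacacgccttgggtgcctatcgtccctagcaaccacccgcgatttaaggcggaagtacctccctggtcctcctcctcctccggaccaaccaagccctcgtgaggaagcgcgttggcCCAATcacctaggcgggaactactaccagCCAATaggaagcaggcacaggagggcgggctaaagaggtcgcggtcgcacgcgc
PSMB5: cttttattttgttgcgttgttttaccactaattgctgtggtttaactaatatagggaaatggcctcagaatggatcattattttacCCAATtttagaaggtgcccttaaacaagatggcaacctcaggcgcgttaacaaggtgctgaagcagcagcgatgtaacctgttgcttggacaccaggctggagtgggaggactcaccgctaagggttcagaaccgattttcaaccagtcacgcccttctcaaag
PSMD8: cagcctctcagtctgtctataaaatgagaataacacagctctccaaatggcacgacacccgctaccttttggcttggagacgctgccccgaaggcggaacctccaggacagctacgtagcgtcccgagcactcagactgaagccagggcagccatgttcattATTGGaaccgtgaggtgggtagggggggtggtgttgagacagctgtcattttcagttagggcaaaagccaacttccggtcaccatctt
PSMC3: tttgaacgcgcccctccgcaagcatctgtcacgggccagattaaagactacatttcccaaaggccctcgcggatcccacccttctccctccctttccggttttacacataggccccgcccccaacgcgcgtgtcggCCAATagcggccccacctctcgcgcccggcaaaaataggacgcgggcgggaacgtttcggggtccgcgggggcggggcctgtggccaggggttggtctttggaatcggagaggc
PSMA5 carries 2 CCAAT boxes in this window, and PSMB5, PSMD8 and PSMC3 carry 1 each. RefSeq promoters were matched for 42 of the 48 genes, without PSMB6 and PSMB7. CCAAT was found on either strand in 18 of these 42 (42.9%), against 33.0% of all 27305 promoters of this length. TGACNNNGC, the core of the antioxidant response element, stood in 11 of 42 (26.2%), against 11.03% of all promoters. GGGCGG, the GC box, stood in 26 of 42 (61.9%), against 42.3%, and TGANTCA, the AP-1 site, in 1 of 42 (2.38%), against 6.596%. Each motif was searched on both strands. A TGACNNNGC match can contain a TGANTCA match, and such shared matches were not excluded. A match is a run of letters and does not show that a factor binds there.

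The libraries held 17479736, 15651183 and 16284985 recovered fragments in the CD20-positive group and 17564543, 16666554 and 17915942 in the CD20-negative group. MS4A1, which encodes CD20, measured 1.24, 0.966 and 1.28 FPKM (fragments per kilobase of exon, scaled to library size, the unit of the deposited values) in CD20-positive libraries, against 0.225, 0.263 and 0.403 FPKM in CD20-negative libraries, and the groups did not overlap. Of 6 melanocyte markers, MITF (1.72 to 2.34 FPKM) and PMEL (8.73 to 33.8 FPKM) were present, while SOX10, MLANA, TYR and DCT stayed at or under 0.262 FPKM in every library. The leukocyte marker PTPRC reached 0.0116 FPKM and CD3E was at 0. Mitochondrial genes took 20.6, 11.9 and 17.4% of fragments in CD20-positive libraries, against 4.25, 5.73 and 5.06% in CD20-negative libraries. Cytosolic ribosomal protein genes took 4.63, 3.44 and 2.89%, against 7.21, 7.37 and 7.54%. Proteasome genes took 0.431, 0.342 and 0.291% of fragments in CD20-positive libraries, against 0.580, 0.432 and 0.418% in CD20-negative libraries. The part that the mitochondrial and ribosomal shares have in the values below was not tested. In such bulk libraries, fewer cells of a type and less RNA per cell cannot be told apart.

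Of the 48 proteasome genes, 31 averaged 10 FPKM or more across the 6 libraries and were tested, and 17 did not. Of these 17, 12 had a mean between 1 and 10 FPKM and 5 a mean under 1 FPKM. The tested genes ranged in mean from 10.4 FPKM (PSMD12, a lid subunit) to 159 FPKM (PSMA7, an alpha-ring subunit), and each was backed by 473 to 7696 fragments per library. FPKM here divides by the union of all annotated exons, so a gene with a long annotated union has a low value even if its main transcript is short.

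PSMB8 and PSMB9, the interferon-inducible catalytic subunits, were listed at 0 in every library. Their level cannot be read from this table. They lie in the major histocompatibility region of chromosome 6. Of the 20 protein-coding neighbours of each, 10 on each side, 17 had a mean under 0.1 FPKM, against 34.1% of all protein-coding genes. Genes that every cell uses are low there too. RPS18, a ribosomal protein, had a mean of 0.852 FPKM, and BRD2, a chromatin reader, 0.00684 FPKM. TAP1, the peptide transporter of antigen processing, was listed at 0. B2M, the class I light chain on chromosome 15, averaged 45.3 FPKM. PSMB10, the third inducible catalytic subunit, lies on chromosome 16 and was measured at 3.36, 2.69 and 2.66 FPKM in CD20-positive libraries, against 2.15, 3.24 and 3.11 FPKM in CD20-negative libraries. Its groups overlapped (exact permutation test, two-sided, p = 0.9, smallest possible 0.1), and 34.8% of its exon length is shared with another gene.

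PSMB3, a beta-ring subunit without an active site and part of every core particle, was also near 0. It had 1 fragment in each of CD20-negative replicates 1 and 2 and 0 in the other 4 libraries. Of its 20 protein-coding neighbours on chromosome 17 (38181659 to 39197703), 11 had a mean under 0.1 FPKM, or 55%. PIP4K2B, a lipid kinase, and CISD3, a mitochondrial iron-sulfur protein, were listed at 0 in that stretch. PSMA8, the testis form of an alpha subunit, was at 0 in every library, and PSMB11, the thymus-specific catalytic subunit, had a mean of 0.0279 FPKM.

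**Figure D1:**
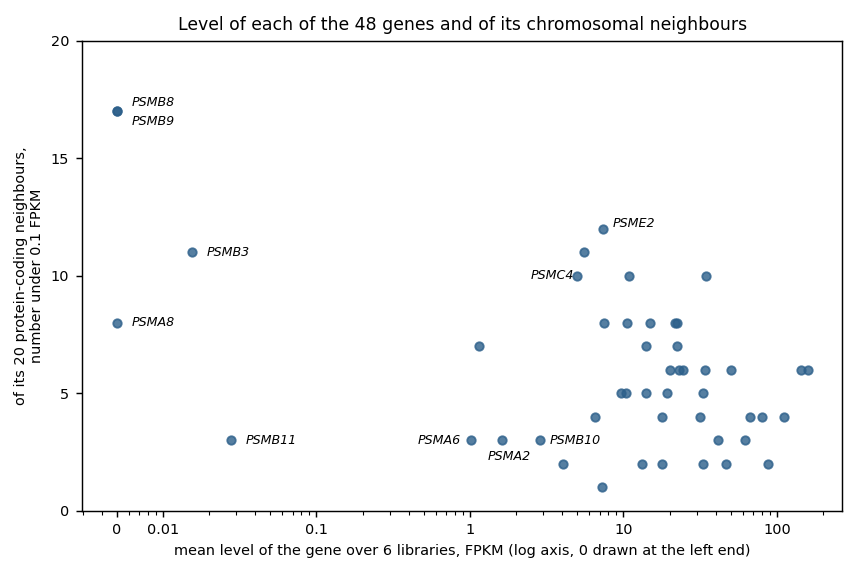
Each of the 48 points is a proteasome gene, with its mean FPKM over the 6 libraries on a log axis. The other axis is the number of its protein-coding neighbours with a mean under 0.1 FPKM. Up to 10 neighbours on each side were counted, 20 in all except for PSMB1 (12) and PSMD13 (15). PSMB8 and PSMB9 stand at 0 FPKM with 17 low neighbours each and PSMB3 at 0.0154 FPKM with 11, while PSMB10 has 2.87 FPKM and 3 low neighbours.

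Several constitutive subunits were low and share exons or names with other annotated genes. PSMA6, an alpha subunit, averaged 1.01 FPKM, while the 4 pseudogenes that bear its name summed to a mean of 1.59 FPKM. PSMA2, another alpha subunit, averaged 1.62 FPKM and shares 34.6% of its exon length with other genes. PSMC1, a base ATPase, averaged 6.51 FPKM, shares 75.8% of its exon length with NRDE2 on the other strand, and has 13 named pseudogenes with a summed mean of 3.37 FPKM. Strand use in counting is not given in the sources used here, so the levels of these 3 genes are uncertain. In all, 23 of the 48 genes share exon sequence with another gene and 12 have named pseudogenes.

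PSMC4, another base ATPase, varied widely and was looked at after its values were seen. It measured 3.27, 0.653 and 3.60 FPKM in CD20-positive libraries, against 1.54, 1.27 and 19.6 FPKM in CD20-negative libraries. CD20-negative replicate 3 held 924 PSMC4 fragments and the other 5 libraries 25 to 136, and no group difference can be read from it (exact permutation test, two-sided, p = 0.8).

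Proteasome genes were mostly lower in CD20-positive cells, by small amounts that differed between the replicate pairs. Of the 31 tested genes, 28 had a negative log2 change (CD20-positive minus CD20-negative, on log2(FPKM + 1)), and the median change was -0.26, against -0.01 for all 4503 tested genes. The size of that median rests on single libraries: it was -0.09 without CD20-negative replicate 1, -0.10 without CD20-positive replicate 3, -0.16 without CD20-positive replicate 2 and -0.50 without CD20-positive replicate 1. Without a replicate block, limma called 0 of 31 (background 0.0222% of all tested genes; lowest adjusted p = 0.339). In that fit 2 of the 31 genes, PSMA5 and PSMG1, had an unadjusted p under 0.05. That is a smaller share than the 610 of all 4503 tested genes. With voom 0 proteasome genes were called. In the paired fit, which adds the replicate number as a blocking term, limma called 8 of 31 lower and 0 higher at an adjusted p under 0.05. The background was 11.3% of tested genes called lower and 9.93% called higher, so the 25.8% of proteasome genes called lower was above the background and the share called higher was below it. All 8 genes called with the block missed the threshold without it, at adjusted p-values of 0.339 to 0.526. The median stayed negative under the deposited scaling and 4 others (-0.76 to -0.15). Relative to the median of all tested genes, which scaling to the FPKM total moved to -0.50 and to the fragment total to -0.18, it was -0.26 to -0.23. After the correction for exon length and GC content it was -0.18 relative to all genes, and for the 7 genes averaging 50 FPKM or more it was -0.10 relative to all genes at that level. The paired count was smaller with a filter at a mean of 1 FPKM, where 2 genes (PSMA5 and PSMB6) of 43 were called lower against a background of 2.64%, and after that correction, where 4 were called (PSMA4, PSMA5, PSMB6 and PSMD8; background 6.75%).

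On the deposited scale, used throughout this paragraph unless stated, the pairs differed in size of change. The median over the 31 genes was -0.14 in pair 1, -0.29 in pair 2 and -0.38 in pair 3, against 0.07, -0.06 and -0.02 over all tested genes. In the alpha ring the pair of replicate 1 had the lowest median, at -0.52, against -0.17 in pair 2 and -0.38 in pair 3. In the 3 pairs 24, 26 and 27 of the 31 genes were lower in the CD20-positive library, against 42.7, 56.8 and 52.5% of all tested genes. A lower value in all 3 pairs was seen for 18 of 31 genes, against a background of 24.8%. In each group replicate 1 was the highest library for 29 of the 31 genes, against 61.2% of all tested genes in the CD20-positive group and 49.5% in the CD20-negative group. Only 1 of the 31 genes, PSMG1, had no overlap between the groups, with the CD20-positive libraries lower (background 7.22%), and the groups overlapped for the others. The paired count was 0 without both libraries of replicate 3 (background 0.555%), 5 without replicate 2 (8.24%) and 11 without replicate 1 (16.7%). Without CD20-positive replicate 1 alone, the fit without the block called 7 genes lower (PSMA5, PSMB2, PSMB5, PSMB6, PSMB7, PSMD8 and PSMF1; background 12.2%). The order of the pairs depends on the scaling. Proteasome genes took 0.431 against 0.580% of fragments in pair 1, 0.342 against 0.432% in pair 2 and 0.291 against 0.418% in pair 3. By that share the gap of pair 1 was not the smallest. The library size implied by the deposited values was 0.864 of the recovered fragments in CD20-positive replicate 1 and 1.07 in CD20-negative replicate 1.

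The 3 constitutive catalytic subunits were all among the 8 called genes. After quantile normalisation PSMB5 and PSMB7 were not called and PSME3 and PSMG1 were (8 genes, background 11.8%), and with the FPKM total without mitochondrial genes PSMB7 was not called. PSMB6, the caspase-like subunit (ENSG00000142507, GRCh38 chromosome 17, 4796144 to 4798503), measured 80.6, 42.8 and 30.7 FPKM in CD20-positive libraries, against 102.5, 76.5 and 65.2 FPKM in CD20-negative libraries. Within each pair the CD20-positive value was 78.7, 56.0 and 47.0% of its partner. It fell by 0.74 ± 0.174 (SE) on the log2 scale in the paired fit (adjusted p = 0.000375; 0.403 without the block).

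PSMB5, the chymotrypsin-like subunit and the target of the drug bortezomib (ENSG00000100804, chromosome 14, 23016543 to 23035230), measured 102, 55.8 and 45.9 FPKM in CD20-positive libraries, against 105, 90.8 and 78.0 FPKM in CD20-negative libraries. The first pair was nearly level and the others were well apart, at 97.0, 61.4 and 58.9% of the partner. It fell by 0.50 ± 0.180 (SE) in the paired fit (adjusted p = 0.0322). PSMB7, the trypsin-like subunit (ENSG00000136930, chromosome 9, 124353466 to 124415444), measured 76.6, 43.4 and 39.3 FPKM, against 92.1, 62.7 and 60.6 FPKM, and fell by 0.46 ± 0.174 (SE; adjusted p = 0.0387). For both genes CD20-positive replicate 1 lay within the CD20-negative range, so the groups overlapped. Summed, the 3 catalytic subunits came to 259, 142 and 116 FPKM in CD20-positive libraries, against 300, 230 and 204 FPKM in CD20-negative libraries.

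**Figure D2:**
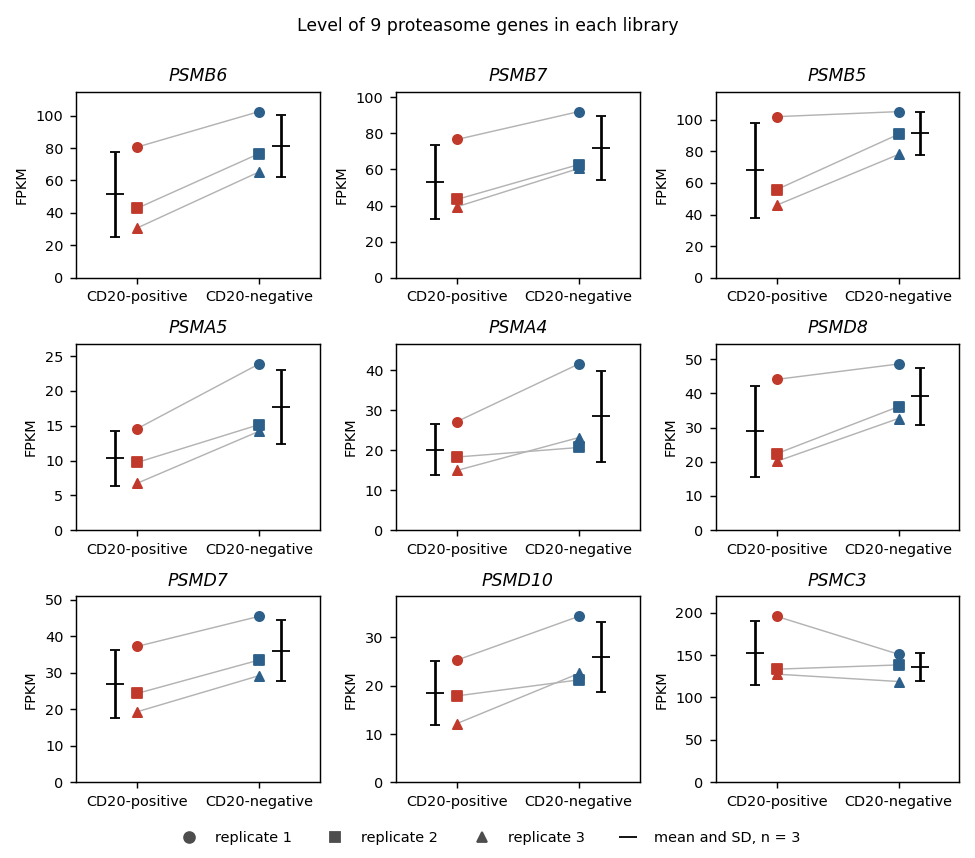
FPKM (axis from 0) of the 8 genes called in the paired fit and of PSMC3, which was not called: each point is a library, shaped by replicate, lines join libraries of the same number, and bars are the mean and SD of the 3 libraries, with CD20-positive left of CD20-negative. In the 8 called genes every line is lower at its CD20-positive end and replicate 1 is the highest in both groups.

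Of the other beta-ring subunits, PSMB1, PSMB2 and PSMB4, which shape the ring without an active site, had log2 changes of -0.36, -0.35 and -0.23 and were not called (adjusted p = 0.112, 0.0785 and 0.431, paired limma). All 6 tested beta-ring genes were therefore negative, 3 of them called (background 11.3%), with a median of -0.41.

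In the alpha ring 5 of 8 genes were tested, 2 were called lower (background 11.3%) and the median change was -0.34. PSMA5 (ENSG00000143106, chromosome 1, 109399031 to 109426427) had the lowest paired p of all proteasome genes. It measured 14.6, 9.72 and 6.73 FPKM in CD20-positive libraries, against 23.9, 15.1 and 14.2 FPKM in CD20-negative libraries, and fell by 0.75 ± 0.152 (SE; adjusted p = 2.96e-05; 0.339 without the block). CD20-positive replicate 1 was the only library of its group inside the CD20-negative range. PSMA4, another subunit of this ring, measured 27.2, 18.3 and 14.9 FPKM, against 41.6, 20.7 and 23.2 FPKM, and fell by 0.46 ± 0.155 (SE; adjusted p = 0.0213).

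The sizes of the 8 called changes also rest on single libraries. Without CD20-positive replicate 1 they were -1.12 for PSMB6, -0.83 for PSMB5, -0.76 for PSMB7, -0.68 for PSMA4, -0.68 for PSMD7 and -0.83 for PSMD8. With the same library left out they were -1.005 for PSMA5 and -0.74 for PSMD10. Without CD20-positive replicate 3 they were -0.50 for PSMA5, -0.44 for PSMB6, -0.26 for PSMB5, -0.28 for PSMB7, -0.27 for PSMA4, -0.23 for PSMD7, -0.29 for PSMD8 and -0.25 for PSMD10. Without CD20-negative replicate 1 they were -0.27 for PSMB7, -0.16 for PSMA4, -0.26 for PSMD7, -0.33 for PSMD8 and -0.29 for PSMD10. In that setting they were -0.57 for PSMB6, -0.52 for PSMA5 and -0.39 for PSMB5. All 8 stayed negative whichever library was left out.

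The remaining alpha subunits were not called. PSMA7, the most abundant proteasome transcript per length, measured 217, 115 and 108 FPKM in CD20-positive libraries, against 234, 145 and 136 FPKM in CD20-negative libraries (log2 change -0.26, adjusted p = 0.425). PSMA3 had a change of -0.34 (adjusted p = 0.0932). PSMA1 measured 13.8, 15.9 and 15.3 FPKM, against 17.9, 12.1 and 13.8 FPKM, with a change of 0.05, and it shares 24.7% of its exon length with another gene.

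The regulatory particle had a smaller median change. Of its 17 genes 13 were tested, 2 were called lower, both of the lid, and the median change was -0.14. The 15.4% called is near the background of 11.3%. Over the constitutive core particle 5 of 11 tested genes were called lower (background 11.3%), with a median of -0.36. The difference between the core and the regulatory particle was not tested.

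The lid had 7 of 8 genes tested. PSMD8, the subunit whose yeast counterpart joins last when the lid is built, measured 44.1, 22.4 and 20.1 FPKM in CD20-positive libraries, against 48.6, 36.1 and 32.6 FPKM in CD20-negative libraries, and fell by 0.49 ± 0.163 (SE; adjusted p = 0.0167). PSMD7, the partner of PSMD14 in the deubiquitinating module, measured 37.2, 24.4 and 19.3 FPKM, against 45.5, 33.5 and 29.2 FPKM, and fell by 0.43 ± 0.161 (SE; adjusted p = 0.0387). In both genes CD20-positive replicates 2 and 3 lay below every CD20-negative library. PSMD14, the enzyme that cuts ubiquitin from the substrate, measured 12.1, 8.95 and 7.02 FPKM, against 17.1, 9.98 and 10.04 FPKM, with a change of -0.36 that missed the threshold (adjusted p = 0.0915). The other tested lid subunits PSMD3, PSMD11 and PSMD13 had changes of -0.07, -0.18 and -0.19. PSMD12, a lid subunit with the lowest tested mean, measured 11.8, 10.5 and 7.87 FPKM, against 13.8, 8.86 and 9.31 FPKM (change -0.06).

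No base subunit was called. PSMC3, whose level among the ATPases was the highest per length, measured 195, 133 and 127 FPKM in CD20-positive libraries, against 151, 138 and 119 FPKM in CD20-negative libraries. Its change of 0.14 ± 0.211 (SE) was the highest of the 31 genes and was not called (adjusted p = 0.699, paired limma), and its sign depends on the scaling: it was -0.38 with each library scaled to its FPKM total and -0.04 with each scaled to its fragment total. Without CD20-positive replicate 1 it was -0.05. PSMC2 and PSMC5, the other tested ATPases, had changes of -0.14 and -0.13. The scaffold subunits PSMD1 and PSMD2 had changes of -0.03 and -0.08, and the ubiquitin receptor PSMD4 one of -0.25.

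The catalytic subunits were also set against PSMC3 within each library, a ratio that does not depend on how libraries are scaled; it was chosen after the values were seen and has no test. The ratio of PSMB6 to PSMC3 was 0.412, 0.321 and 0.241 in CD20-positive libraries, against 0.679, 0.553 and 0.549 in CD20-negative libraries. That of PSMB5 to PSMC3 was 0.522, 0.419 and 0.360, against 0.697, 0.656 and 0.657, and that of PSMB7 to PSMC3 was 0.392, 0.325 and 0.309, against 0.610, 0.454 and 0.510. Because PSMC3 had the highest change of the 31 genes and the catalytic subunits were called lower, the choice of genes fixes much of the separation between the groups, and nothing is read from it.

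**Figure D3:**
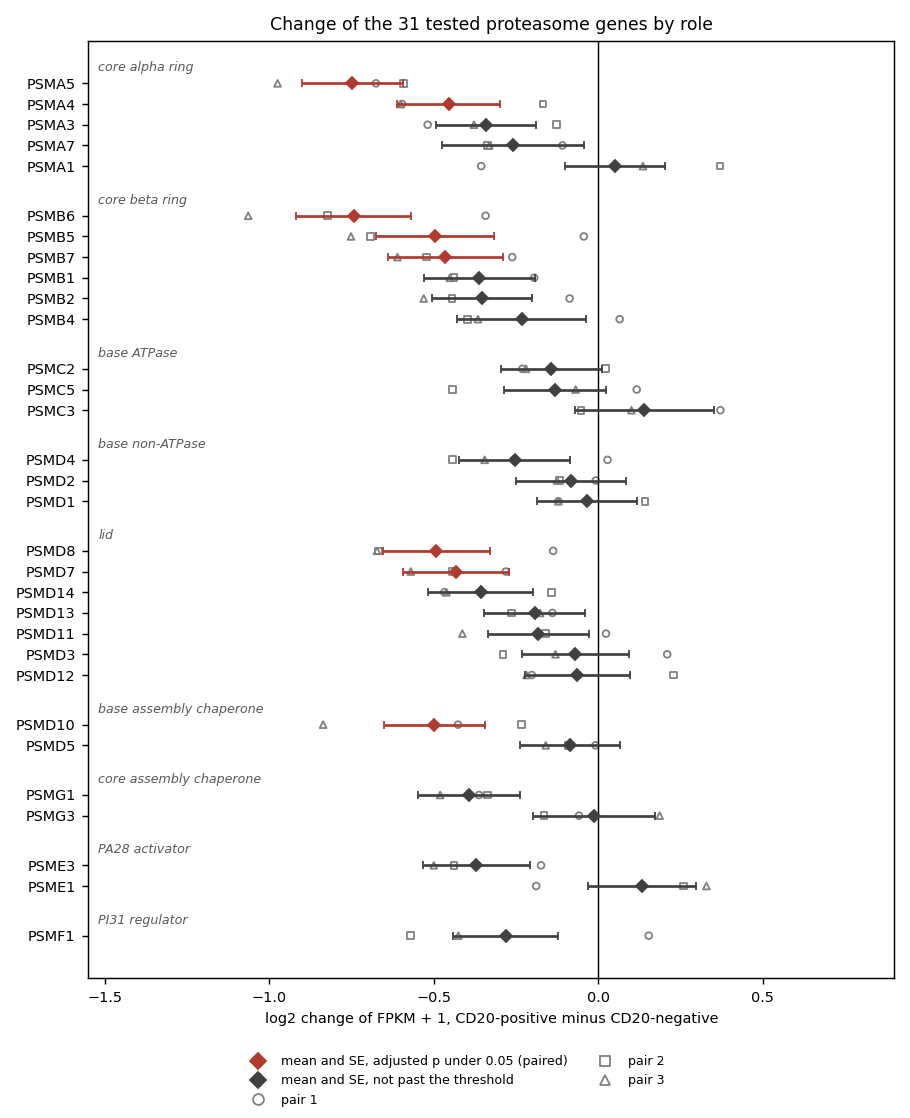
Log2 change (CD20-positive minus CD20-negative, on log2(FPKM + 1)) of the 31 tested genes grouped by role: open points are the 3 pairs, diamonds the mean change with its SE in the paired fit, and red diamonds are called at an adjusted p under 0.05. The 8 called genes lie between -0.75 and -0.43, and the open circle of pair 1 often lies to the right of the other pairs.

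Among the assembly factors, PSMD10 (gankyrin, a chaperone of the base) was called. It measured 25.3, 17.9 and 12.2 FPKM in CD20-positive libraries, against 34.3, 21.2 and 22.5 FPKM in CD20-negative libraries, and fell by 0.50 ± 0.154 (SE; adjusted p = 0.00968). PSMD5, another base chaperone, had a change of -0.09. PSMG1, a chaperone of the alpha ring, lay just outside the threshold (adjusted p = 0.0506), with 21.9, 19.2 and 16.3 FPKM, against 28.4, 24.5 and 23.1 FPKM. Its change was -0.39 and its groups did not overlap (exact permutation test, two-sided, p = 0.1, the smallest 3 against 3 can give). PSMG3, of the same chaperone family, measured 85.4, 80.8 and 93.7 FPKM, against 89.0, 90.8 and 82.2 FPKM (change -0.01, SE 0.185).

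Activators and the regulator PI31 were not called. PSME1, the alpha subunit of the interferon-inducible PA28 activator, measured 41.0, 37.7 and 27.7 FPKM in CD20-positive libraries, against 46.9, 31.3 and 21.9 FPKM in CD20-negative libraries (change 0.13, adjusted p = 0.617). PSME2, its partner subunit, measured 6.65, 8.43 and 3.51 FPKM, against 10.2, 5.997 and 9.70 FPKM (exact permutation test, p = 0.3). The groups overlapped for both genes.

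PSME3, the nuclear PA28 gamma, measured 39.9, 25.8 and 21.0 FPKM in CD20-positive libraries, against 45.1, 35.4 and 30.1 FPKM in CD20-negative libraries (change -0.37, adjusted p = 0.0862). It was lower in all 3 pairs. PSME4, the PA200 activator, measured 6.04, 8.12 and 6.91 FPKM, against 8.11, 7.71 and 7.92 FPKM (exact permutation test, p = 0.4). PSMF1, which encodes PI31, measured 13.1, 7.84 and 7.69 FPKM, against 11.7, 12.1 and 10.7 FPKM (change -0.28, adjusted p = 0.21).

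The 12 genes with a mean between 1 and 10 FPKM include 5 not described so far. These are the ATPase PSMC6 (CD20-positive libraries 6.42 ± 0.329, CD20-negative libraries 8.02 ± 2.57 FPKM, SD, n = 3), the lid subunit PSMD6 (CD20-positive 5.29 ± 1.16, CD20-negative 5.83 ± 1.38 FPKM), the base chaperone PSMD9 (mean 1.14 FPKM over the 6 libraries) and the core chaperones PSMG2 (CD20-positive 8.71 ± 2.68, CD20-negative 10.68 ± 1.06 FPKM) and PSMG4 (CD20-positive 3.67 ± 0.491, CD20-negative 4.37 ± 0.735 FPKM). Their groups overlapped (two-sided exact permutation tests, p = 0.2 to 0.8). When genes down to a mean of 1 FPKM were tested, none of the 12 was called in either limma fit.

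The promoter motifs can be set beside the calls for 25 tested genes with a promoter in the table. CCAAT stood in 5 of the 6 called genes and in 8 of the 19 not called, among them PSMC3. TGACNNNGC stood in 0 of the 6 called genes and in 5 of the 19 not called. GGGCGG stood in 3 of the 6 called and in 11 of the 19 not called, and TGANTCA in 0 of both. These are counts on few genes, with no test.

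Genes that work beside the proteasome are given as counts, from lists chosen with earlier results of these data known. Of 13 assembly and partner genes 8 were tested and 1 fell, a share near the background of 11.3%. POMP, which helps the core particle mature, measured 72.2, 30.5 and 28.5 FPKM in CD20-positive libraries, against 105, 47.4 and 49.4 FPKM in CD20-negative libraries, and fell by 0.64 ± 0.170 (SE; adjusted p = 0.0021, paired limma; 0.524 without the block). The ubiquitin receptor ADRM1 had a change of 0.09 and the deubiquitinase USP14 one of 0.05.

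Of 8 genes that control proteasome transcription, 4 were tested and none was called with or without the block (0 of 4 had an unadjusted p under 0.05 without it), with a median of 0.15. NFE2L1 measured 38.1, 40.6 and 38.4 FPKM in CD20-positive libraries, against 37.0, 32.6 and 29.3 FPKM in CD20-negative libraries (change 0.24, adjusted p = 0.315). On the deposited scale every CD20-positive library lay above every CD20-negative library, as it did for 12.3% of all tested genes. Scaled to the FPKM total, its change was -0.26 and the median of the 4 genes was -0.34, against -0.50 for all tested genes. With that total without mitochondrial genes these values were 0.34 and 0.25 (all tested genes 0.09). After quantile normalisation they were 0.25 and 0.16 (all tested genes -0.003), and with the fragment total 0.06 and -0.02 (all tested genes -0.18). MAFK, a partner of NFE2L1, had a change of 0.43 (adjusted p = 0.0764).

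Of 9 genes for ubiquitin and its activating enzymes 7 were tested and 3 were called lower in the paired fit (background 11.3%). Among them RPS27A, which encodes ubiquitin fused to a ribosomal protein, fell by 1.08 (adjusted p = 0.000113, paired limma; 0.191 without the block), beside the lower ribosomal protein share given above. UBB, a polyubiquitin gene, fell by 0.54 (adjusted p = 0.0492; 0.51 without the block), while UBA1, the main ubiquitin-activating enzyme, had a change of 0.16 and was not called. Of 6 shuttle factors that carry substrates to the proteasome 5 were tested and 1 was called lower (background 11.3%), which on so few genes shows little. It was RAD23B, which fell by 0.42 (adjusted p = 0.0498, paired limma; 0.393 without the block).

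The COP9 signalosome and eIF3 are complexes related to the lid by sequence, and the median of the tested lid genes was -0.19. Of 10 COP9 signalosome genes 6 were tested, 1 fell (COPS9, by 0.62, adjusted p = 0.000663 with the block and 0.449 without it), a share near the background of 11.3%, and the median was -0.28. Of 13 genes of the translation initiation factor eIF3, 11 were tested, 4 fell (EIF3I, EIF3E, EIF3H and EIF3L, by 0.70, 0.65, 0.63 and 0.60, with adjusted p-values of 0.212 to 0.371 without the block) and the median was -0.37. The cytosolic chaperonin CCT, a large assembly unrelated to protein degradation, had 8 of 8 genes tested, none called with or without the block (0 with an unadjusted p under 0.05 without it), and a median of -0.26, with all 8 lower in all 3 pairs. The proteasome median was -0.26, and no test was made of a difference between it and these medians.

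**Figure D4:**
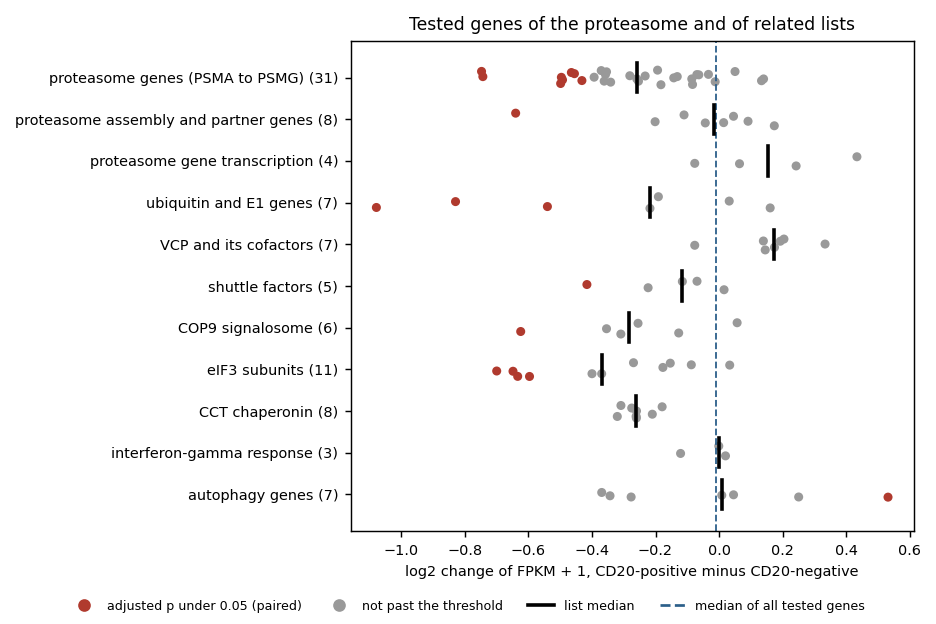
Log2 change (CD20-positive minus CD20-negative) of each tested gene of the proteasome and of 10 related lists, with the number tested in brackets, the list median as a bar, called genes in red and the median of all tested genes as a dashed line. The eIF3 and CCT medians (-0.37 and -0.26) lie beside that of the proteasome genes (-0.26). The VCP and transcription lists are at 0.17 and 0.15 on the deposited scale. Scaled to the FPKM total they are at -0.32 and -0.34, and all tested genes at -0.50.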

How the data were processed

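The deposited table holds FPKM values, computed by the authors, for 58395 Ensembl genes in 6 libraries. The header names no unit, which was read from the values: multiplied by the union exon length of GENCODE release 29 they gave whole fragments for 98.1 to 98.6% of low values (up to 20 fragments, tolerance 0.02). GRCh38, featureCounts 1.5.0, HISAT2 and DESeq2 are named per the submitters' processing notes, while their settings and strand use are not given here. In all 120 identifiers were not matched (0.0154% of summed FPKM). The recovered fragments, 15651183 to 17915942 per library, served only for shares, one scaling and voom, and limit precision by counting error only.

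The 4503 genes averaging 10 FPKM or more were tested by limma 3.58.1 (R 4.3.3; trend, robust prior) on log2(FPKM + 1), as CD20-positive minus CD20-negative, adjusted by Benjamini-Hochberg over all tested genes and a threshold of 0.05. The log2(FPKM + 1) scale understates changes of low genes. The fit was checked on simulated data in which libraries of the same number shared a deviation. That check cannot show whether the real libraries pair by number. The fit was run without a replicate block and, as the paired fit, with one. Deviations of same-numbered libraries from their group means correlated at 0.73, 0.25 and 0.65, all over 0.1, and on that basis samples were treated as paired by number. CD20-positive replicate 3 and CD20-negative replicate 2 correlated at 0.59, and CD20-positive replicate 2 and CD20-negative replicate 3 at 0.54, so how replicates 2 and 3 pair is uncertain; a swapped block was not run. With the replicate block 8 proteasome genes were called, and 0 without it. Its residual degrees of freedom are 2, and for 93.4% of genes its spread comes from the other genes alone.

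Values per library were given for the catalytic subunits, the PSME genes, PSMF1, PSMD14, the 5 genes with the smallest paired p in each direction, those with the highest and lowest tested means and MS4A1, and up to 3 genes per list; PSMD7, PSMG1, PSMG3, PSMC4, PSMB3 and other genes outside that rule were chosen after their values were seen. The members and lists were chosen with earlier results of these data known. Alternatives covered the pseudocount, filter, scaling, prior, voom, length and GC content, the block and leaving out libraries. Some genes of these lists are not reported here.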

Additional observations from a re-analysis of the deposited data

How the results depend on the processing

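Proteasome genes called without a replicate block (0) came to 23 with scaling to the FPKM total and 8 with the replicate block. Leaving out 1 library gave 0 to 7. All genes called without the block (1) came to 0 with no filter, with voom and after the length and GC correction, 43 at a filter of 50 FPKM, 15 after quantile normalisation, 1834 (31 higher, 1803 lower) with the FPKM total and 954 with the replicate block. Leaving out 1 library gave 0 to 792. Proteasome genes called in the paired fit (8) came to 2 at a filter of 1 FPKM, 0 with no filter, 3 at a filter of 50 FPKM, 27 with the FPKM total, 5 with that total without mitochondrial genes, 17 with the fragment total, 4 after the length and GC correction and 0 with no replicate block. Leaving out a replicate pair gave 0 to 11. All genes called in the paired fit (954) came to 0 with no filter, 269 at a filter of 50 FPKM, 2452 (51 higher, 2401 lower) with the FPKM total, 1443 (212 higher, 1231 lower) with the fragment total, 623 after the length and GC correction and 1 with no replicate block. With the FPKM total without mitochondrial genes, 795 were higher and 399 lower. Leaving out a pair gave 64 to 1212. The cause of these shifts was not tested.

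Over 19 proteasome genes and 329 alternatives, 17 changes reversed sign, all of genes that were not called. With the FPKM total PSMB10 had -0.35, PSME1 -0.37, PSMC3 -0.38 and PSMA1 -0.43, and with the fragment total PSME1 had -0.047, PSMC3 -0.045 and PSMA1 -0.12. PSMD12 had 0.031 with the FPKM total without mitochondrial genes, 0.018 after quantile normalisation and 0.059 after the length and GC correction. Leaving out 1 library gave -0.10 to 0.11 for PSMB10, -0.13 to 0.41 for PSME1, -0.054 to 0.25 for PSMC3, -0.069 to 0.20 for PSMA1 and -0.18 to 0.12 for PSMD12. The 8 paired calls were the same genes with pseudocounts of 0.1 and 5, without the robust prior and with voom. Genes at a few FPKM, shared exons and pseudogenes limit what the low subunits can show.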

Other observations

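VCP, the segregase that extracts ubiquitin-tagged proteins for the proteasome, and its cofactors mostly had changes above 0 on the deposited scale. Their median was -0.32 with each library scaled to its FPKM total, where the median of all tested genes was -0.50. It was 0.17 after quantile normalisation (all tested genes -0.003) and 0.27 with that total without mitochondrial genes (all tested genes 0.09). With the fragment total it was 0.0001 (all tested genes -0.18). Of 15 genes 7 were tested, 6 of the 7 had a positive log2 change and the median was 0.17, and none was called in the paired limma fit or without the block (0 had an unadjusted p under 0.05 without it). VCP measured 61.5, 47.1 and 46.5 FPKM in CD20-positive libraries, against 50.2, 45.4 and 39.3 FPKM in CD20-negative libraries. SYVN1, a ubiquitin ligase of the endoplasmic reticulum, measured 21.1, 21.3 and 25.1 FPKM, against 17.3, 19.8 and 15.99 FPKM (change 0.33, adjusted p = 0.104), and its groups did not overlap, which held in this direction for 12.3% of all tested genes.

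Of 19 autophagy genes 7 were tested and 1 rose, near the background of 9.93%. ULK1, the kinase that starts autophagosome formation, measured 33.8, 20 and 22.7 FPKM in CD20-positive libraries, against 20.7, 16.1 and 14.5 FPKM in CD20-negative libraries, a log2 change of 0.53 ± 0.153 (SE; adjusted p = 0.00525 in the paired limma fit, 0.371 without the block). The median of the 7 was 0.01. Of 17 interferon-gamma response genes 3 were tested and none was called with or without the block (0 had an unadjusted p under 0.05 without it).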
